A study of Mus musculus with 12 samples.

Results

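The genes examined were the heat shock chaperones of the cytosol and their regulator, a list of 10 genes made up of Hsf1, Hspa1a, Hspa1b, Hspa4l, Hspa8, Hsph1, Hspb1, Hsp90aa1, Hsp90ab1 and Dnajb1. A probe set, a group of short array probes read as a single value, was taken as a member when the platform annotation gave it exactly 1 symbol and that symbol was on the list. This rule found 19 of the 22626 probe sets tested, and they measured 8 of the 10 genes. Hspa8 had 4 probe sets, Hspa1b and Hsp90aa1 had 3 each, Hsph1, Hspa4l, Hspb1 and Dnajb1 had 2 each, and Hspa1a had 1. Hsf1 and Hsp90ab1 were not measured here by a probe set named for either gene alone, so no value is given for them.

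The values came from the livers of 12 C57Bl/6J mice aged 6 to 8 weeks, 3 in each of 4 groups. Mice of either genotype, wild type or Aag knock-out, were either left as controls or given 75 mg/kg of methyl methane sulfonate (MMS) by 1 injection into the peritoneum, and the organ was removed 6 h after treatment. MMS is a methylating agent, and Aag (gene symbol Mpg) is the DNA glycosylase that removes methylated purines at the start of base excision repair. The groups are called untreated wild type, MMS wild type, untreated knock-out and MMS knock-out below. The sources used here do not give the knock-out allele, the sex of the mice or whether controls received a vehicle injection. All values are log2 expression levels of bulk liver RNA, in which fewer cells of a type and less RNA per cell cannot be told apart.

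Cytosolic chaperones bind unfolded or newly made protein and either refold it or pass it on. HSP70 proteins do so in cycles of ATP hydrolysis that HSP40 proteins start and that nucleotide exchange factors such as HSP110 proteins reset, HSP90 completes the folding of kinases and hormone receptors, and small heat shock proteins hold damaged protein until HSP70 takes it over. Stress-inducible members are switched on by HSF1, which binds heat shock elements, alternating GAA and TTC units in their promoters. In liver these genes are known to respond to heat, feeding, body temperature rhythm and toxic injury.

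Promoters of some members are shown because they set Hspa1a and Hspa1b side by side and show where exact matches to 2 motifs of the element lie. The Dnajb1 promoters were searched too but are not printed. Sequences and starts are those of RefSeq on GRCm38.p6, and each is the 120 bases just upstream of the annotated start, written 5' to 3' on the gene's strand, with the GAA and TTC units of a match in capitals. The motifs searched, on both strands, were GAANNTTC and TTCNNGAA, which share units where they overlap. The Hspa1a stretch is chr17:34972157-34972276, minus strand, Hspa1b is chr17:34959239-34959358, minus strand, Hspb1 is chr5:135887799-135887918, plus strand, Hsph1 is chr5:149636337-149636456, minus strand, and Hspa4l is chr3:40745493-40745612, plus strand.
Hspa1a: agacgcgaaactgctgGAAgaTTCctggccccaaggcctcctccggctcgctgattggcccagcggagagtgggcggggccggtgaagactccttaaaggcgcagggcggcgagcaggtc
Hspa1b: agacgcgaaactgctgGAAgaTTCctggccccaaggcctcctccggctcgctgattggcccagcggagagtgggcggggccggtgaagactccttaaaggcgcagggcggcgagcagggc
Hspb1: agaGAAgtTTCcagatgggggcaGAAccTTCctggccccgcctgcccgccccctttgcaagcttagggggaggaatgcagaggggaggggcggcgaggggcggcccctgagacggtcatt
Hsph1: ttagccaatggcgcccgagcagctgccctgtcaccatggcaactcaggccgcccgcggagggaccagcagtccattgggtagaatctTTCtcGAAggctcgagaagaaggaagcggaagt
Hspa4l: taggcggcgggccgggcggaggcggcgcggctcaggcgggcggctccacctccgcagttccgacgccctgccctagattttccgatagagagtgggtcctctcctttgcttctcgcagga

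The Hspa1a and Hspa1b stretches were identical at 119 of 120 bases, and over the 300 bases of the RefSeq promoter window (250 upstream and 50 downstream of the start) at 296, or 98.7%. Both carried GAANNTTC starting 104 bases upstream. The Hspb1 promoter held 2 matches to GAANNTTC, starting 117 and 97 bases upstream. Hsph1 has 2 annotated starts, and from the upstream one, shown above, TTCNNGAA began 33 bases upstream. A run of 3 alternating units with the same spacing, searched on both strands and held by 0.603% of promoters, began 36 bases downstream of that Hsph1 start. Neither motif was found in the 300-base windows of Hspa4l or of the 2 annotated Dnajb1 starts. Over 32851 RefSeq promoters of this length, 15.1% held at least 1 of the motifs. A match to the letters is a description and not a measured binding site. The search took only exact matches in these windows, so a promoter without a match is not shown to lack the element. In all, 6 of the 10 listed genes, with 8 promoters, were in the table searched.

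Before the results, the arrays were compared. Array medians lay between 7.42 and 7.75, pairwise correlations over all probe sets between 0.962 and 0.995, and 9 of 12 arrays correlated best with an array of their own group. For the remaining 3 the best match lay elsewhere. MMS wild-type animal 1 matched untreated knock-out animal 2 best, untreated knock-out animal 3 matched MMS knock-out animal 3, and the latter matched animal 2 of the untreated wild type. The gap between 3' and 5' control probe sets for beta-actin and Gapdh, a measure of RNA integrity, averaged 1.61 and 1.51 on MMS knock-out arrays 1 and 2, against 2.00 to 2.66 on the other 10 arrays. The targeted gene was lower in the knock-out at the Mpg probe set 1417571_at (2.25-fold; exact two-sided permutation test within treatments, p = 0.005, the smallest that 400 regroupings allow), where wild-type values started at 6.21 and knock-out values ended at 5.75. The other Mpg probe set overlapped between genotypes and differed by -0.31 (p = 0.04 in the same exact test). The sources used here do not say whether either lies in the deleted part. The defining hepatocyte markers were bright in every group, from Tat at a mean of 11.6 to Apoa1 at 14.6, and 0 of 7 was called by limma in either MMS response. In each, 1 of 7 had an unadjusted p under 0.05, against 24.5% and 26.1% of all genes. It was Tat both times, in opposite directions and without overlap, at -0.61 in wild type and 0.82 in the knock-out. The difference of these responses, 1.43, was not called (limma adjusted p = 0.0917).

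Differences below are group mean differences on the log2 scale with their standard error, from limma fitted to all 12 arrays. A difference is called where the Benjamini-Hochberg adjusted p over the 22626 probe sets is under 0.05. Of the 19 heat shock probe sets, 1 was called in the wild-type MMS response, where 6.44% of all probe sets were called, and that 1 was lower (4.45% of all were). In the knock-out MMS response 0 of 19 was called, against 1.51% of all probe sets, and 7 of 19 had an unadjusted p under 0.05 against 24.8%. For the mean MMS response over both genotypes 1 of 19 was called, the same probe set and again lower, against 11.3% of all called and 6.66% called lower. In that mean response 9 of 19 had an unadjusted p under 0.05, against 27.6% of all probe sets, and at the brightest probe set of each gene 5 of 8, against 29.2% of all genes. With so few calls, these counts do not show whether the heat shock genes differ from the rest of the array. The median response of the 19 probe sets was -0.22 in wild type and 0.29 in the knock-out, beside -0.05 and -0.06 over all probe sets. Over the 8 genes at their brightest probe set it was -0.26 and -0.15, so the sign in the knock-out differed between the summaries. With each array centred on its median, the medians of the 19 became -0.02 and 0.22.

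**Figure D1:**
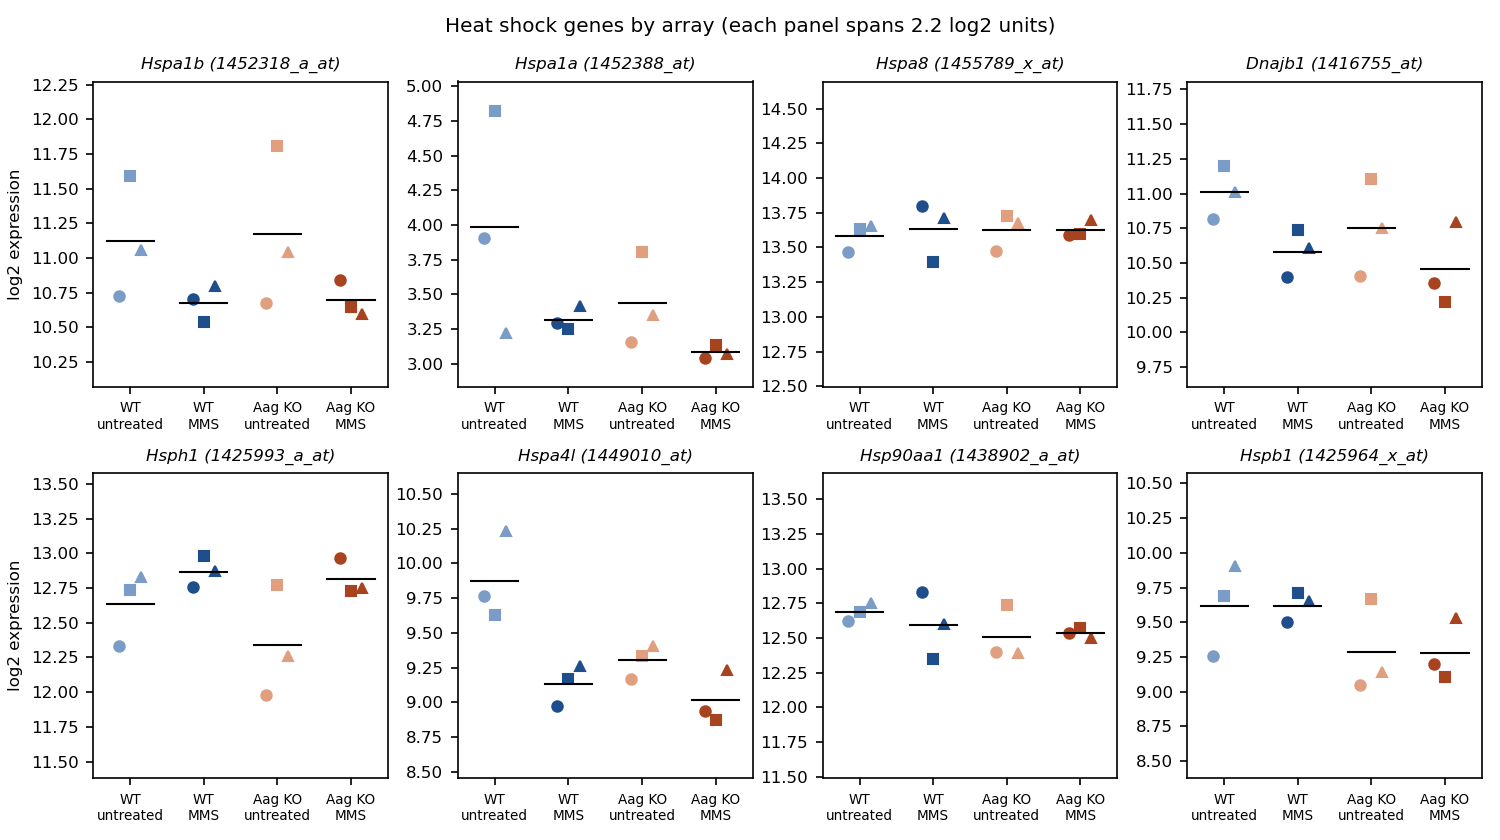
Log2 expression of the brightest probe set of each of 8 heat shock genes in 4 groups of 3 livers, with circle, square and triangle for animals 1, 2 and 3 and a bar for the group mean; every panel spans 2.2 log2 units. Untreated Hspa1b spans 10.68 to 11.81 and its MMS values 10.54 to 10.84, and in wild type the Hspa4l values with MMS all lie below those without.

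Hspa1b encodes the stress-inducible HSP70 and is the usual reporter of HSF1 activity. Its brightest probe set, 1452318_a_at, read 10.73, 11.59 and 11.06 in untreated wild type and 10.70, 10.54 and 10.80 in MMS wild type. In the knock-out it read 10.68, 11.81 and 11.04 untreated and 10.84, 10.65 and 10.59 with MMS. Animal 2 was the highest in both untreated groups, while untreated animal 1 lay among the treated values in each genotype, so the groups overlapped. The mean MMS response was -0.46 ± 0.19 (SE; 95% interval -0.89 to -0.04) and was not called (adjusted p = 0.151). The response was -0.45 in wild type and -0.48 in the knock-out, and the difference between them was -0.03 with an interval of -0.89 to 0.82. The size rested partly on untreated knock-out animal 2, the highest value of all. Without it the knock-out response was -0.17 (adjusted p = 0.746) and the mean response -0.31 (adjusted p = 0.271), and over the 12 fits with 1 array left out the mean response lay between -0.59 and -0.31 and was called in 0 by limma.

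The other Hspa1b probe sets were dimmer and read in the same direction. For 1427126_at the values were 6.04, 7.36 and 6.78 in untreated wild type, 5.83, 6.06 and 6.18 in MMS wild type, 6.42, 7.21 and 5.79 in untreated knock-out, and 6.03, 5.53 and 4.75 in MMS knock-out. Its mean MMS response was -0.87 ± 0.30 with an interval of -1.52 to -0.22 (adjusted p = 0.0848), and with 1 array left out it lay between -1.04 and -0.69. It was called in 1 of those 12 fits, that without untreated knock-out animal 3 (-1.04, adjusted p = 0.0453), and was smallest without untreated knock-out animal 2 (adjusted p = 0.172). For 1427127_x_at, whose probes also match other transcripts by the naming of the array, the mean response was -0.63 ± 0.27 (adjusted p = 0.151). The highest value of each probe set was again that of animal 2, in wild type for the first and in the knock-out for the second. All 3 probe sets kept a negative mean response under quantile normalization and median centring. With all arrays the upper ends of the 3 intervals were -0.04, -0.22 and -0.05, and none of the 3 differences was called.

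Hspa1a is the neighbouring copy of the same chaperone, and its single probe set was dim. It read 3.91, 4.82 and 3.22 in untreated wild type, 3.29, 3.25 and 3.41 in MMS wild type, 3.15, 3.81 and 3.35 in untreated knock-out, and 3.05, 3.13 and 3.07 in MMS knock-out. These values lie below the lower quartile of probe set means, 5.68, and no detection call came with the table, so they may hold little signal of the gene. Its mean MMS response was -0.51 ± 0.23 (adjusted p = 0.171), and 2 untreated wild-type arrays moved it in opposite ways. Without animal 2, the highest, it was -0.30 (adjusted p = 0.262), and without animal 3, the lowest of that group, it was -0.70 (adjusted p = 0.0415), the 1 call among the 12 fits with an array left out. In the knock-out the treated values all lay below the untreated ones, and in wild type they overlapped. Because the 2 genes are near-identical, signal at the Hspa1a and Hspa1b probe sets cannot be assigned to 1 copy with certainty.

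Hspa8 encodes HSC70, the constitutive HSP70 of the cytosol, which also serves clathrin uncoating and chaperone-mediated autophagy. A pair of its probe sets read higher with MMS by like amounts. For 1420622_a_at the untreated wild-type values were 12.93, 13.15 and 13.31, and those with MMS were 13.27, 13.68 and 13.40. Untreated knock-out livers read 12.80, 13.23 and 13.17, and MMS knock-out livers 13.48, 13.48 and 13.42. The treated knock-out values all lay above the untreated ones, and in wild type only MMS animal 1 fell within the untreated range. The mean MMS response was 0.36 ± 0.11 (interval 0.11 to 0.61; adjusted p = 0.0628), just outside the threshold.

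The second of the pair, 1420623_x_at, gave a mean response of 0.39 ± 0.12 (interval 0.13 to 0.64; adjusted p = 0.0537). In the knock-out it moved from 12.71, 13.13 and 13.18 to 13.57, 13.52 and 13.35 without overlap. Their calls depended on how many probe sets were tested. With probe sets below the lower quartile of mean level left out, the adjusted p-values were 0.0423 and 0.0361, and over 21 alternative settings they were called in 7 and 10. With 1 array left out they were called in 1 and 3 of 12 fits and lay between 0.29 and 0.41, and between 0.31 and 0.43. Both were called without MMS wild-type animal 1 (adjusted p = 0.0450 and 0.0440), and without untreated knock-out animal 1, where both were smallest, neither was (adjusted p = 0.136 and 0.116). The brightest Hspa8 probe set, 1455789_x_at, did not show this shift: it read 13.46, 13.63 and 13.65 in untreated wild type, 13.80, 13.40 and 13.71 in MMS wild type, 13.47, 13.73 and 13.68 in untreated knock-out and 13.59, 13.60 and 13.70 in MMS knock-out, a mean response of 0.03 with an interval of -0.18 to 0.23.

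The fourth Hspa8 probe set, 1431182_at, was the dimmest of them and behaved differently again. It read 9.34, 9.24 and 9.07 in untreated wild type, 7.90, 8.67 and 8.41 in MMS wild type, 7.97, 7.95 and 9.10 in untreated knock-out and 8.54, 9.06 and 8.78 in MMS knock-out. The wild-type groups did not overlap and differed by -0.89 ± 0.30 (adjusted p = 0.106), while the knock-out response was 0.45 ± 0.30 (adjusted p = 0.374). The difference between these responses, 1.34 ± 0.43, was not called (adjusted p = 0.176). Without untreated knock-out animal 3, whose 9.10 stood apart from 7.97 and 7.95, it was 1.72 (adjusted p = 0.0436), and the wild-type response was then called too (adjusted p = 0.0295). In the other 11 fits with 1 array left out neither was called, and the smallest values, 1.13 and -0.67, came without MMS wild-type animal 1. The probe sets of Hspa8 therefore disagree, and no single direction can be given for the gene. By the naming of the array, probes of 1455789_x_at and 1420623_x_at also match other transcripts, so neither can be read as Hspa8 alone.

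Dnajb1 encodes HSP40, which delivers clients to HSP70 and is itself induced by HSF1. Its brighter probe set, 1416755_at, read 10.82, 11.20 and 11.01 in untreated wild type, 10.40, 10.73 and 10.61 in MMS wild type, 10.40, 11.10 and 10.75 in untreated knock-out, and 10.36, 10.22 and 10.79 in MMS knock-out. In wild type each treated value lay below each untreated value, and in the knock-out they overlapped. The mean MMS response was -0.36 ± 0.14 (interval -0.68 to -0.04) and was not called (adjusted p = 0.133). With 1 array left out it lay between -0.45 and -0.28, with 1 call in 12, without MMS knock-out animal 3 (-0.45, adjusted p = 0.0478). It was smallest without untreated knock-out animal 2 (adjusted p = 0.264). The dimmer probe set, 1416756_at, had the opposite sign, 0.22 ± 0.13 (interval -0.06 to 0.50), so the gene's direction is not settled. Its response was 0.01 in wild type and 0.43 in the knock-out, where the MMS values were 8.27, 8.28 and 7.94.

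Hsph1 encodes HSP105, an HSP110 protein that exchanges nucleotide on HSP70 and is strongly heat-inducible. Probe set 1425993_a_at read 12.34, 12.74 and 12.83 in untreated wild type and 12.76, 12.98 and 12.87 in MMS wild type. The knock-out values were 11.98, 12.77 and 12.26 untreated and 12.97, 12.73 and 12.75 with MMS. The untreated animal 1 was lowest in each genotype, and all groups compared overlapped. The mean response was 0.36 ± 0.14 (interval 0.04 to 0.67; adjusted p = 0.131), and that of the second probe set, 1423566_a_at, 0.37 ± 0.20 (interval -0.07 to 0.80; adjusted p = 0.259). With 1 array left out the first lay between 0.27 and 0.46, with 1 call in 12, without untreated knock-out animal 2, the highest of its group (0.46, adjusted p = 0.0480). It was smallest without animal 1 of the same group, the lowest (adjusted p = 0.239).

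Hspa4l encodes a relative of Hsph1 in the HSP110 family, and it held the only call. At 1449010_at the untreated wild-type livers read 9.77, 9.63 and 10.23, and the MMS wild-type livers 8.97, 9.16 and 9.26. The untreated knock-out livers read 9.17, 9.33 and 9.40, and the MMS knock-out livers 8.94, 8.87 and 9.23. The wild-type groups did not overlap, and every knock-out value lay below every untreated wild-type value. In wild type the level fell by 0.74 ± 0.17 on the log2 scale (interval -1.12 to -0.36; adjusted p = 0.0317), and it fell by 0.52 ± 0.12 in the mean of both genotypes (adjusted p = 0.0230). The knock-out response was -0.29 ± 0.17 (adjusted p = 0.320), and the difference of the responses, 0.45 with an interval of -0.08 to 0.99, was not called (adjusted p = 0.355).

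The wild-type Hspa4l call was close to the threshold. Leaving out untreated animal 1 or 3, or MMS animal 1, 2 or 3, ended it, with adjusted p between 0.0569 and 0.113. Across 23 alternative settings the difference ranged from -0.87 to -0.55 and was called in 15. The call for the mean of both genotypes was lost without untreated knock-out animal 2 or MMS knock-out animal 1 or 2 (adjusted p between 0.0520 and 0.0596), and held in 17 of 22 alternatives. The second probe set, 1418253_a_at, read 8.78, 8.46 and 9.20 in untreated wild type, 8.08, 8.90 and 8.39 in MMS wild type, 8.12, 8.37 and 8.41 in untreated knock-out, and 8.77, 8.75 and 8.26 in MMS knock-out. Its responses were -0.36 ± 0.24 and 0.29 ± 0.24, neither called, and with the mean of both probe sets the wild-type difference was -0.55 (adjusted p = 0.0831).

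Hsp90aa1 encodes the inducible form of cytosolic HSP90. Its brightest probe set, 1438902_a_at, showed no called difference. It read 12.63, 12.68 and 12.75 in untreated wild type, 12.83, 12.35 and 12.60 in MMS wild type, 12.40, 12.74 and 12.39 in untreated knock-out, and 12.54, 12.57 and 12.50 in MMS knock-out. The mean MMS response there was -0.03, with an interval of -0.26 to 0.19. The 2 dimmer probe sets instead separated the untreated genotypes. At 1426645_at the untreated values were 11.12, 11.10 and 11.39 in wild type and 10.11, 10.46 and 9.98 in the knock-out, a difference of -1.02 ± 0.25 (adjusted p = 0.403). At 1437497_a_at they were 11.00, 10.96 and 11.06 against 10.20, 10.73 and 10.17, a difference of -0.64 ± 0.21 (adjusted p = 0.557). Both comparisons were without overlap, and neither was called.

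With MMS the same 2 Hsp90aa1 probe sets read 10.65, 10.96 and 10.35, and 10.87, 10.80 and 10.70, in wild type. In the knock-out they read 10.72, 10.93 and 9.97, and 11.29, 11.32 and 10.54. Animals 1 and 2 of that group were high and animal 3 was low at both, and the former are the arrays with the smaller gap between 3' and 5' controls. The differences of the responses were 0.91 ± 0.35 and 0.90 ± 0.30 (adjusted p = 0.228 and 0.193). With that gap as a covariate, an alternative chosen after seeing the data, they were 0.42 and 0.60 (adjusted p = 0.595 and 0.451). The knock-out response at 1437497_a_at was 0.68 ± 0.21 (adjusted p = 0.0951). With 1 array left out it lay between 0.55, without MMS knock-out animal 2, and 0.94, without MMS knock-out animal 3, the 1 of 12 fits in which it was called (adjusted p = 0.0112). The dimmer Dnajb1 and Hspa4l probe sets were also lowest of that group in animal 3 (7.94 and 8.26). The brighter probe sets of both genes were highest in it (10.79 and 9.23).

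Hspb1 encodes HSP25, a small heat shock protein that binds actin and unfolded protein. At 1425964_x_at it read 9.26, 9.69 and 9.91 in untreated wild type, 9.50, 9.71 and 9.65 in MMS wild type, 9.05, 9.67 and 9.14 in untreated knock-out, and 9.20, 9.11 and 9.53 in MMS knock-out. The 4 ranges overlapped, and the mean MMS response was 0.00 with an interval of -0.32 to 0.32. Probes of this probe set also match other transcripts by the naming of the array. The second probe set, 1422943_a_at, gave 0.18 (interval -0.14 to 0.51; adjusted p = 0.454). The knock-out minus wild-type difference over both treatments was -0.34 ± 0.15 at the first probe set and was not called (adjusted p = 0.615). Over both treatments 0 of 19 heat shock probe sets was called by limma between the genotypes, against 0.0265% of all, and 3 of 19 had an unadjusted p under 0.05 against 7.90% of all.

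**Figure D2:**
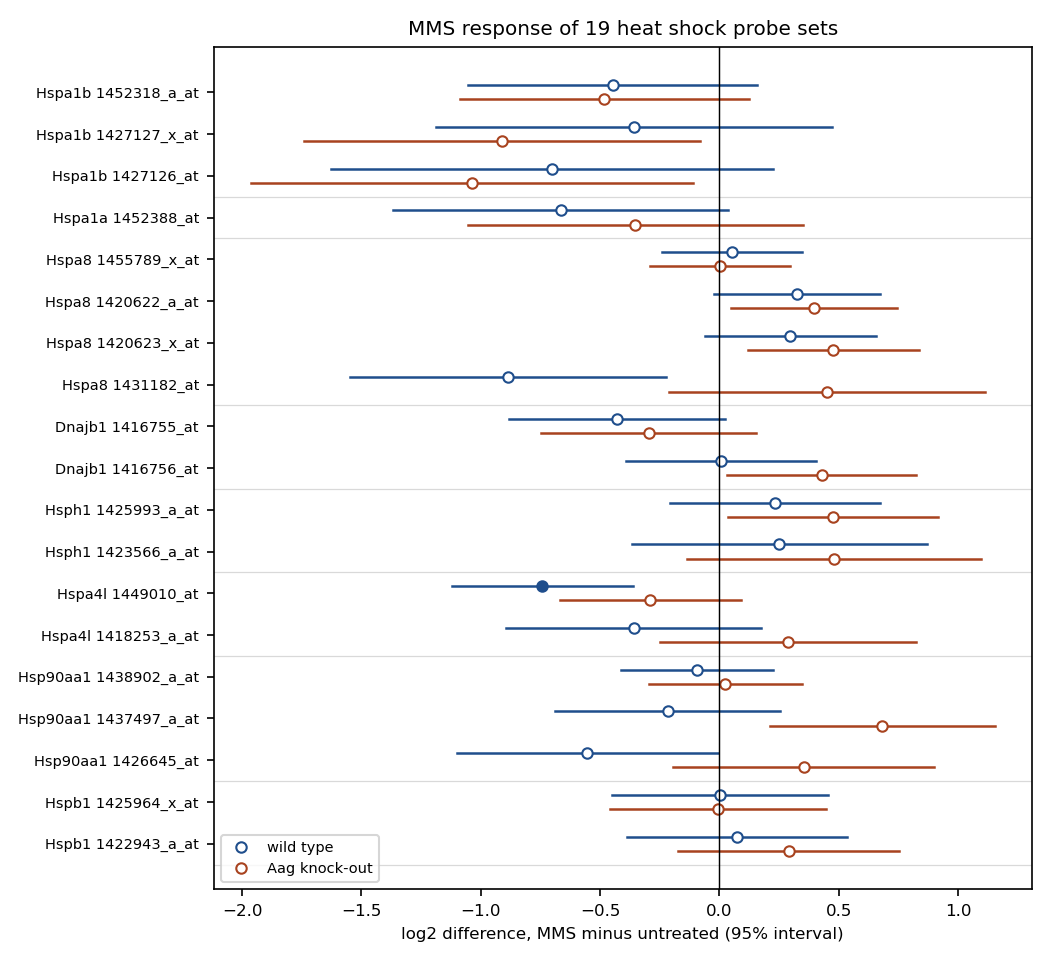
MMS minus untreated difference of 19 heat shock probe sets (log2) in wild-type (blue) and Aag knock-out (red) liver, with 95% intervals from limma; filled points are called at an adjusted p under 0.05. The 1 filled point is Hspa4l 1449010_at in wild type at -0.74, and probe sets of 1 gene often lie on different sides of 0.

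Members were also set side by side as a group, as counts. In wild type 5 of 19 probe sets had MMS values that did not overlap the untreated ones, all lower, against 20.5% of all probe sets that were lower without overlap. The genes were Dnajb1, Hspa4l, Hspa8 and, with 2 probe sets, Hsp90aa1. In the knock-out 3 of 19 were clear of overlap, the 2 higher Hspa8 probe sets and the lower Hspa1a one, against 26.7% of all probe sets, 12.9% higher and 13.8% lower. For the difference of the responses 0 of 19 was called by limma, as was 0 of all 22626, and 3 of 19 had an unadjusted p under 0.05 against 17.7% of all. Those 3 were the Hspa8 probe set 1431182_at and the 2 dimmer Hsp90aa1 probe sets.

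Between the genotypes without MMS, 16 of 19 heat shock probe sets read lower in the knock-out, with a median of -0.26 beside -0.02 over all probe sets. With each array centred on its median the count was 14 and the median -0.16. None of the 19 was called by limma, where 0.0398% of all probe sets were, and 4 of 19 had an unadjusted p under 0.05 against 7.16% of all. In 4 of 19, the 2 dimmer Hsp90aa1 and both Hspa4l probe sets, all knock-out values were below all wild-type values, against 10.8% of all probe sets that were lower without overlap. The Hspa4l difference at 1449010_at was -0.57 ± 0.17 (adjusted p = 0.473). With MMS 12 of 19 read lower in the knock-out with a median of -0.05, and with each array centred 16 did with a median of -0.22, so centring made the difference smaller without MMS and larger with it. Over both treatments 15 of 19 were lower with a median of -0.19, and with centring 19 of 19 with a median of -0.22. In the MMS comparison 0 of 19 was called by limma (0.0177% of all), 0 of 19 had an unadjusted p under 0.05 (18.4% of all), and 1 of 19, Hspa1a, was lower without overlap (7.71% of all).

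The spread between animals also differed between groups. Over the 19 probe sets the median range of 3 animals was 0.49 in untreated wild type, 0.34 in MMS wild type, 0.62 in untreated knock-out and 0.36 in MMS knock-out. All probe sets together went the other way, with median ranges of 0.26, 0.45, 0.37 and 0.46. Over the brightest probe set of each of the 8 genes the narrowing was larger, with 0.55, 0.28, 0.64 and 0.25, beside 0.25, 0.43, 0.35 and 0.44 over all genes. The untreated range was the wider for 12 of 19 probe sets in wild type and 15 of 19 in the knock-out, against 28.1% and 40.7% of all probe sets. For 11 of 19 it was wider in both, against 12.2%. With 3 animals a group these ranges are descriptions, and no test was made of them.

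The wide untreated ranges came with animals in which most members sat on 1 side, though this was not particular to untreated livers. MMS wild-type animal 3 lay above its group mean for 8 of 8 genes (57% of all genes), by a mean of 0.06. Untreated knock-out animal 2 was the highest of its group for 7 of 8 genes, where it was highest for 25.4% of all genes, and untreated knock-out animal 1 was the lowest for 7 of 8, against 35.1%. In untreated wild type, animal 1 was the lowest for 6 of 8, against 32.1%. The mean distance from the group mean was 0.32 for untreated knock-out animal 2 and -0.27 for animal 1 of that group. Ranges in the untreated knock-out ran from 0.24 for Hspa4l and 0.26 for Hspa8 to 0.79 for Hsph1 and 1.13 for Hspa1b. The sources used here do not say when each mouse was killed or fed.

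**Figure D3:**
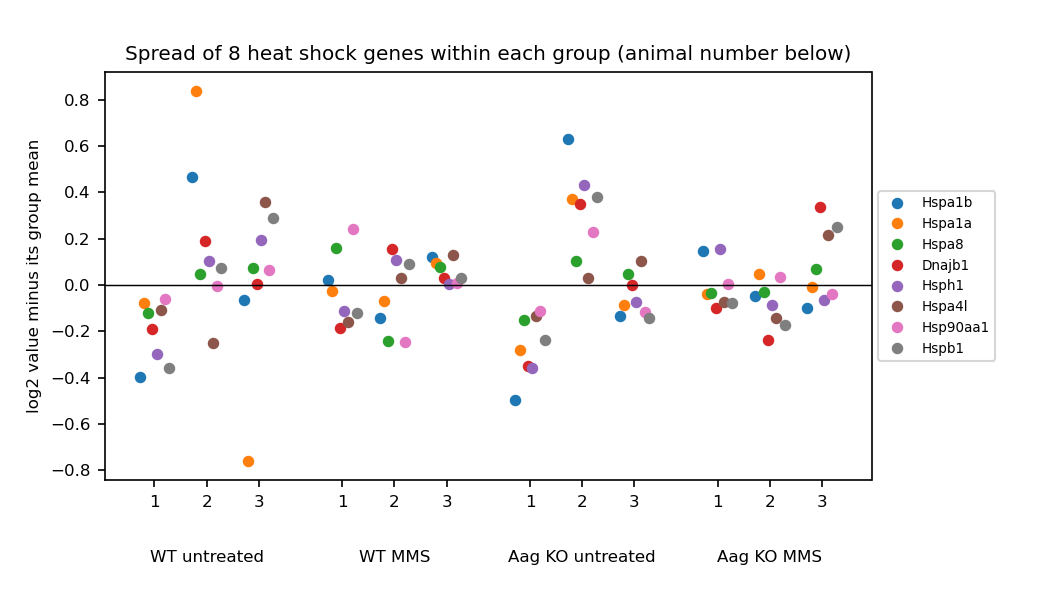
Log2 value minus the mean of its group for 8 heat shock genes (colours) on each of 12 arrays, by group and animal number. In untreated knock-out liver all 8 genes lie above the mean in animal 2 and below it in animal 1, while in MMS knock-out liver the genes scatter on both sides. In MMS wild-type liver all 8 genes lie above the mean in animal 3, by a mean of 0.06.

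Some genes outside the list followed the pattern of Hspa1b over the 12 arrays. By Pearson correlation with 1452318_a_at among 12393 genes, the closest were Pard6b (r = 0.86, Spearman's rho 0.85), Alk (0.85 and 0.69), Egln3 (0.79 and 0.65), Foxc1 (0.78 and 0.60) and Tssk1 (0.78 and 0.78). These are the extremes of many correlations and are descriptions only. Untreated animal 2 of each genotype was the highest of its group for Pard6b, with 8.08 in wild type and 8.02 in the knock-out, and also for Alk and Egln3. Of the 5, Alk and Egln3 fell with MMS, by a mean of 1.26 ± 0.25 and 0.62 ± 0.11 (adjusted p = 0.0113 and 0.00660). The mean responses of Pard6b, Foxc1 and Tssk1 were -0.22, -0.56 and -0.37 and were not called (adjusted p = 0.193, 0.0687 and 0.133). The 5 were picked for following Hspa1b over these same arrays, and Hspa1b read lower with MMS. That choice favours negative responses, so their direction is no separate result. Alk and Foxc1 were dim, with group means from 4.15 to 5.54, below the lower quartile of 5.68 as Hspa1a was.

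The remaining chaperone machinery was read from 8 lists with 61 genes, 56 of them measured. In the mean MMS response 6 rose, 0 fell and 50 were not called, so 10.7% were called, all of them higher. Over all genes 12.5% were called in either direction, and over all probe sets 4.61% were called higher and 6.66% lower. The median of the 56 was 0.06 beside -0.06 over all genes. In wild type 1 was called (1.79%) and in the knock-out 1 (1.79%), each of them higher. In either direction 7.53% and 1.70% of all genes were called there, and 1.99% and 0.747% of all probe sets were called higher. The 6 that rose were spread over 5 lists, 1 each among 5 measured HSP70 relatives, 7 nucleotide exchange factors, 11 HSP90 and HSP70 co-chaperones and 6 small heat shock proteins, and 2 among 8 cytosolic HSP40 genes. The heat shock factor list had 3 measured genes, Hsf2, Hsf4 and Hsbp1, the last of which is not itself a heat shock factor. Of those genes, the 8 CCT chaperonin subunits and the 8 mitochondrial chaperones, 0 was called by limma in any of the 7 contrasts. In the mean MMS response 1, 2 and 1 of them had an unadjusted p under 0.05, against 29.2% of all genes.

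Bag3 and Hspb8 encode partners that hand damaged protein on HSP70 to autophagy, and both rose. Hspb8 read 12.29 to 12.47 in untreated wild type and 12.76 to 13.15 with MMS, and 12.19 to 12.36 and 12.72 to 13.02 in the knock-out, without overlap in either. It rose by 0.57 ± 0.13 in wild type (adjusted p = 0.0310), and by 0.59 ± 0.09 in the mean of both genotypes (adjusted p = 0.00468), while the knock-out response alone was 0.61 (adjusted p = 0.0501). The wild-type call was lost when any 1 of 5 of the 6 wild-type arrays was left out, with adjusted p up to 0.129 (without untreated animal 1), while the mean response was called in all 22 alternatives. A second Hspb8 probe set rose by 1.04 (adjusted p = 0.0175) and the remaining one read -0.15.

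Bag3 read 9.08 to 9.90 in untreated wild type and 10.16 to 10.91 with MMS, and 8.95 to 9.75 and 10.04 to 10.87 in the knock-out. The groups were clear of overlap in both genotypes, and the mean rise was 1.03 ± 0.21 (adjusted p = 0.0133). Fkbp5, an HSP90 co-chaperone of the glucocorticoid receptor and itself a glucocorticoid target, rose by 1.59 ± 0.31 in the mean (adjusted p = 0.0102), from 8.16 to 9.05 in untreated wild type to 9.32 to 10.38 with MMS, and from 7.85 to 9.48 to 9.88 to 10.65 in the knock-out. Its second probe set read 0.14. Both genes kept the call in all alternatives except the covariate for the gap between 3' and 5' controls, where adjusted p was 0.0671 and 0.0561.

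Weaker rises were those of Hspa4, an HSP110 protein (0.44 ± 0.11, adjusted p = 0.0302), and of the HSP40 genes Dnajb2 (0.61 ± 0.16, adjusted p = 0.0368) and Dnajb5 (0.57 ± 0.16, adjusted p = 0.0390). In the knock-out alone Dnajb2 rose by 1.08 ± 0.23 (adjusted p = 0.0488), against 0.14 ± 0.23 in wild type, and the difference, 0.94, was not called (adjusted p = 0.202). These calls were the less stable ones: over 22, 22 and 21 alternatives Hspa4, Dnajb2 and Dnajb5 were called in 14, 10 and 9. The other Dnajb5 probe sets read -0.07 and 0.07, and those of Hspa4 0.37 and 0.10.

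**Figure D4:**
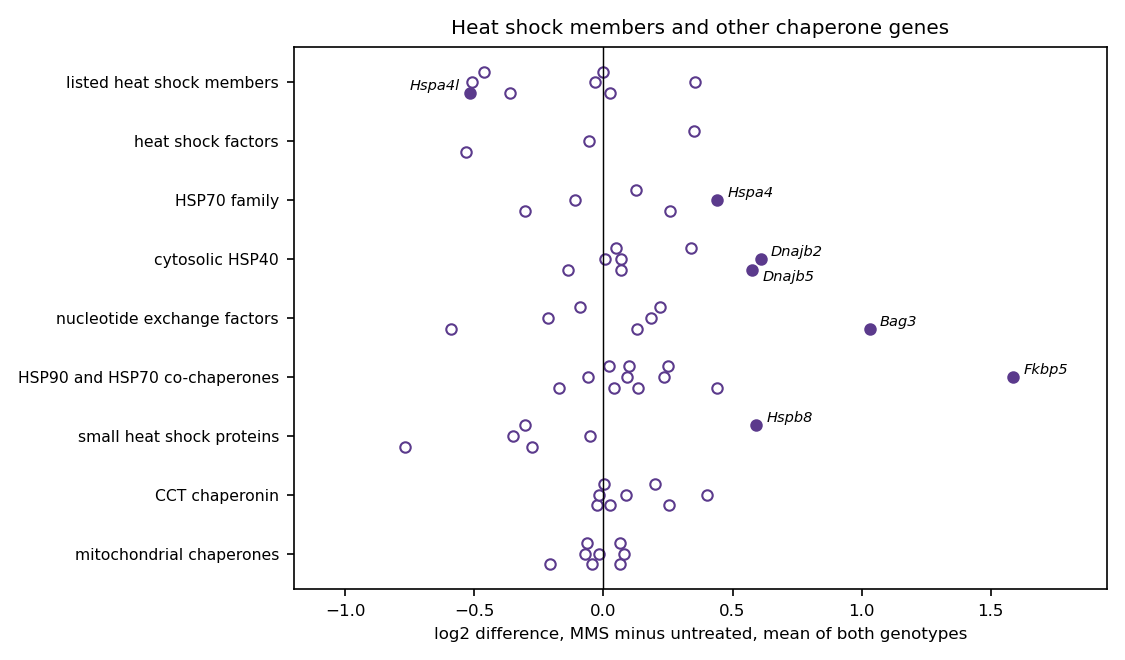
Mean MMS response over both genotypes (log2 difference) of the 8 measured heat shock genes and of 56 other chaperone genes in 8 lists, 1 point per gene at its brightest probe set; filled points are called. The filled points are Hspa4l on the left at -0.52 and 6 other chaperone genes on the right, between 0.44 and 1.59.

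Markers of other cells and processes moved in the same comparisons, and their part in the heat shock values was not tested. In wild type with MMS, 4 of 6 endothelial, 3 of 7 stellate, 2 of 7 lymphocyte and 1 of 6 macrophage markers fell, and 2 of 6 neutrophil markers, 1 macrophage marker and 1 of 3 erythroid markers rose. Over all genes 7.53% were called in that response, in either direction. The neutrophil markers summed to 9.08 to 9.25 (log2) in untreated and 10.6 to 12.2 in MMS wild type, and to 9.08 to 9.67 and 10.2 to 11.9 in the knock-out, with Mpo, a defining granule enzyme, lowest at a mean of 3.61. The 2 wild-type risers were S100a8 (2.33) and S100a9 (2.62), so the sums do not stand for the whole list. In wild type Ngp, Elane, Mpo and Camp read 0.38, 0.09, -0.09 and -0.22, none called. In the knock-out they read -0.39, 0.16, 0.33 and -0.11, and S100a8 and S100a9 1.24 and 1.96, none called. The 4 endothelial calls came with sums of 12.7 to 12.8 untreated and 12.1 to 12.2 with MMS. The erythroid riser was Hba-a1, the dimmest of its list, while Alas2, the brightest, read lower without overlap (-0.46, adjusted p = 0.119), and the erythroid sum went from 11.3 to 11.6 untreated to 11.0 to 11.1 with MMS. Hepatocyte markers summed to between 16.5 and 16.8 in all 12 arrays. Pancreatic acinar markers summed to at most 11.2 outside the MMS knock-out group, and to 13.0, 11.3 and 11.0 in its animals 1, 2 and 3. Of these markers 0 of 7 was called by limma in the knock-out response, and 1 had an unadjusted p under 0.05 (26.1% of all genes). In the knock-out response 1 of 4 cholangiocyte markers, Krt19, rose and no other marker of the 9 lists was called, beside 1.70% of all genes. Sox9, the brightest of those 4, read lower there without overlap (-0.72, adjusted p = 0.145).

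Heat shock transcripts in liver are known to follow the daily rhythm of body temperature, so clock and cold-inducible genes are given too. Of 15 clock genes measured, 5 rose and 3 fell in the wild-type MMS response, where 7.53% of all genes were called. In the knock-out response 0 was called by limma (1.70% of all genes), and 4 had an unadjusted p under 0.05 (26.1% of all genes). Without MMS, 3 of 15 were higher in the knock-out, where 0.0484% of all genes were called in either direction. Clock gene sums were 13.7 to 13.8 in untreated wild type, 14.3 to 14.5 with MMS, and 13.8 to 14.7 and 14.4 to 14.6 in the knock-out. Untreated knock-out animal 3, at 14.7, was among the treated values, and the others of its group were at 14.0 and 13.8. Cirbp, a cold-inducible RNA-binding protein, read 6.35, 5.94 and 5.65 in untreated wild type, 5.25, 4.79 and 6.15 in MMS wild type, 6.69, 6.04 and 5.64 in untreated knock-out, and 5.50, 5.22 and 5.01 in MMS knock-out. Cirbp was the 1 gene measured of 2 cold-inducible genes listed, by 1 probe set. These values lie around the lower quartile of probe set means, 5.68, so they are dim. The mean MMS response of -0.73 ± 0.25 was not called (adjusted p = 0.0830). Its untreated values were highest in animal 1, the animal in which most heat shock genes were lowest, in both genotypes. They were lowest in animal 3 of both genotypes. In the untreated knock-out, animal 2 was the highest of its group for 7 of 8 heat shock genes and animal 3 for 1. In untreated wild type, animal 3 was the highest for 5 of 8 and animal 2 for 3. The mean distance from the wild-type group mean was larger in animal 2, 0.18 against 0.02 in animal 3. Dim Hspa1a read 4.82 in the former and 3.22 in the latter. A link between Cirbp and the heat shock genes was not tested.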

How the data were processed

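RNA extracted with Trizol from 12 mouse livers was labelled with biotin as cRNA and hybridised to Affymetrix arrays, per the labels' protocols. For each array the authors deposited a log2 value per probe set, made with RMA per the submitters' processing notes. The sources used here do not give the version of RMA, the chip definition or the log base, which was taken from the range of the values. RMA sets arrays to a common scale, but medians of the deposited arrays still differed (7.42 to 7.75), so other scalings were tried. No detection call came with the values.

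Of 22690 probe sets, 64 controls were set aside. The platform annotation gave 1 symbol for 20380 of the 22626 tested, several for 691 and none for 1555, and 20351 symbols were updated through a RefSeq gene table (GRCm38.p6). Genes with several probe sets were represented by the one with the highest mean, and the members' other probe sets are given too. Group means of all 12 arrays were fitted with limma 3.58.1 (R 4.3.3; 8 residual degrees of freedom) and compared in 7 contrasts, checked on simulated data. No filter on low values was applied. The animal numbers were not taken to pair the samples, since the labels do not say that they do and 7 of 18 same-numbered pairs correlated above 0.1. The members, the gene lists and the rule for named genes (all members, called list genes, and the 5 genes most correlated with Hspa1b) were chosen with earlier results of these data known. In the chaperone lists, the called genes are named. Array number limits the precision, and nothing says whether animals were housed or processed together.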

Additional observations from a re-analysis of the deposited data

How the results depend on the processing

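Each comparison of the 19 heat shock probe sets was repeated under up to 23 alternatives: filters on low values, median centring or quantile normalization, array weights, a robust variance with a trend, a block for the animal number, the compared groups alone, gene means over probe sets, both knock-out arrays numbered 3 left out (chosen with earlier results of these data known; the nearest array of either was in another group), the covariate for the gap between 3' and 5' controls (chosen after seeing the data), and each array left out in turn. The wild-type MMS response held 1 call, and held 0 with median centring, with the compared groups alone and with gene means, 2 without both knock-out arrays numbered 3 and 3 with array weights. The knock-out response held 0, and held 1 with the median filter and without both arrays numbered 3, and 2 with array weights. Array weights gave 2 calls between untreated genotypes and 3 in the difference of the responses, where leaving out both arrays numbered 3 gave 2. The mean MMS response held 1 call, and held 3 with either filter, with median centring, with the trended variance and without both arrays numbered 3, 2 with quantile normalization, 4 with array weights, and 0 with gene means and with the covariate. Leaving out single arrays gave 0 to 2 calls in wild type, 0 to 1 in the knock-out and in the difference of the responses, and 0 to 3 in the mean MMS response. For the 2 comparisons not mentioned, the Aag difference with MMS and its mean over treatments, every alternative gave 0. The cause of these changes was not tested, and no direction of a called value reversed.

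With the replicate block the mean MMS response held 2 calls, the second being Hspa8 1420622_a_at (adjusted p = 0.0492), the other comparisons kept their counts, and Dnajb2 and Dnajb5 lost theirs (adjusted p = 0.0531 and 0.0585). The numbers are not known to pair the animals: of 18 same-numbered pairs 7 correlated above 0.1, from -0.48 to 0.40. Counts over all probe sets moved more than those of the members: 1458 in the wild-type MMS response became 274 to 4873, 341 in the knock-out 0 to 5790, 9 between untreated genotypes 3 to 182, 4 between treated ones 3 to 1482, 0 in the difference of the responses 0 to 2344, 2551 in the mean MMS response 1160 to 7459, and 6 in the mean Aag difference 3 to 64. Median centring moved the median of all probe sets by 0.19 in the wild-type response and -0.26 in the difference of the responses, and turned 451 higher and 1007 lower wild-type calls into 1298 and 486 (836 and 721 with quantile normalization). For the mean MMS response 1043 and 1508 became 1756 and 1017. With 3 arrays a group, the interval of a member's response was often wider than the response.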
